A study of Rattus norvegicus with 18 samples.

Results

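Adipocytes are the lipid-storing cells of fat, and connective tissue with fat lies around dorsal root ganglia (DRG) and along spinal nerves. White adipocytes secrete hormones such as adiponectin, leptin and, in rodents, resistin, and hold triglyceride in a lipid droplet coated by perilipin and Cidec. They take up fatty acids that lipoprotein lipase frees from circulating lipoproteins, and carry them inside the cell on Fabp4. Brown adipocytes also make Ucp1, the mitochondrial uncoupling protein that turns fuel into heat. The 10 adipocyte genes described here were *Adipoq*, *Fabp4*, *Plin1*, *Cfd*, *Lpl*, *Pparg*, *Cidec*, *Lep*, *Retn* and *Ucp1*, of 15075 RefSeq identifiers in the count table. *Adipoq* was selected on its lower level in bPYX+NT3 rats in these same libraries, and the other 9 are standard adipocyte genes, so the comparisons with bPYX+NT3 rats are a description and not a test of the choice.

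Poly(A) RNA was sequenced from the pooled C6-C8 ganglia of 1 side of each of 18 adult Lister hooded rats, 6 in each of 3 groups. Naïve rats were unoperated. The other rats had both corticospinal tracts cut in the medullary pyramids (bPYX) and then received an AAV1 vector with a CMV promoter in the forelimb flexor muscles of 1 side, carrying either green fluorescent protein (bPYX+GFP) or human neurotrophin-3 (bPYX+NT3), and their ganglia from the injected side were taken 10 weeks after surgery. No group had the lesion without a vector or a vector without the lesion, so effects of lesion and vector cannot be told apart in bPYX+GFP rats. The files hold between 10057787 and 16002410 counted reads per rat, and 1 read was worth between 0.0599 and 0.103 CPM, the unit used below, in which counts are scaled to a common library size after TMM normalisation.

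The group of each rat was taken from the rat number in the heading of the count table, which gives the same 3 groups as the sample descriptions. Each rat's column held the same counts as a file attached to some sample entry, for 18 of 18 rats. For 17 of them the title of that entry was of another group. For rat 21 it was of the same group but with another number, so the attached files do not back the group labels. The fold changes of *Adipoq*, *Fabp4* and *Lpl* are therefore also given with the groups of those titles. The exact tests and the comparisons of the further and brown adipocyte lists are given with the groups of the rat numbers only. Which rats vary together does not depend on either set of labels, apart from the group means that were removed. The tissue matched its label: the 10 of 11 neuron genes with an identifier summed to between 7360 and 10300 CPM in every group. The list of 14 skeletal muscle genes had identifiers for 12, and its sum was highest in bPYX+GFP rat 57, at 21.5 CPM against at most 9.63 CPM in the other rats.

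Of the 10 genes, 9 had an identifier in the table, 7 had more than 1 read in some rat, and 3 (*Adipoq*, *Fabp4* and *Lpl*) passed a minimum of more than 10 reads in 6 or more of all 18 rats. *Plin1*, which encodes the coat protein of the lipid droplet, had no identifier in the table that the RefSeq list pairs with its symbol, so it has no value here. *Pparg*, the nuclear receptor that drives adipocyte differentiation, had 4 reads in all 18 rats together over 2 identifiers, and *Cidec*, a protein of lipid droplet fusion, had 1 read. RefSeq lists 3 transcripts for each of these 2 genes, and a counter that drops reads shared between features can leave such genes near 0, so their levels are not read as low expression.

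The promoters of 4 genes are printed because 3 of them, *Adipoq*, *Thrsp* and *Pck1*, varied together from rat to rat, and *Ucp1* did not vary with them except in 1 rat. Each runs from 250 bases before to 50 bases after the RefSeq start, on the gene's own strand and on build GRCr8, which is not the build the reads were aligned to. *Adipoq* lies at chr11:91240120-91240419 (minus strand), *Thrsp*, a regulator of fat synthesis, at chr1:161138915-161139214 (minus), *Pck1*, the enzyme of glycerol and glucose synthesis, at chr3:182348322-182348621 (plus) and *Ucp1* at chr19:41721372-41721671 (minus). Capitals mark matches on either strand to the letters AGGTCA (the core that nuclear receptors such as Pparg bind), TTGCNNAA (a C/EBP core), CCAAT and TATAAA.
Adipoq: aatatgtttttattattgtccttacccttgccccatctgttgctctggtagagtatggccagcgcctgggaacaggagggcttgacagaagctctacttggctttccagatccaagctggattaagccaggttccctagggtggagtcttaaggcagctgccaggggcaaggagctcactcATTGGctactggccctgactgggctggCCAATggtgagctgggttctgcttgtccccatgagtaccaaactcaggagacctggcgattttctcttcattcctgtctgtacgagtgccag
Thrsp: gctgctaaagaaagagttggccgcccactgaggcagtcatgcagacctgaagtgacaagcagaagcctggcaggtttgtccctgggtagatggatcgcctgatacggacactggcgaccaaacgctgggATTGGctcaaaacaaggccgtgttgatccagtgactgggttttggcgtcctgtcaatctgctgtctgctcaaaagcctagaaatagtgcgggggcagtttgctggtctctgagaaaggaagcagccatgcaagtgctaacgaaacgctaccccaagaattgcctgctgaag
Pck1: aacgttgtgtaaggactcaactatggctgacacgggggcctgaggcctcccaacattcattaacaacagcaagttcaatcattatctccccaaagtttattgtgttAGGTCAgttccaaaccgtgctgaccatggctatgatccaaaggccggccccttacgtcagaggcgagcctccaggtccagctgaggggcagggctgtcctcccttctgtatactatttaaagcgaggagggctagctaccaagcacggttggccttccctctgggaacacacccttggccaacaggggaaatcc
Ucp1: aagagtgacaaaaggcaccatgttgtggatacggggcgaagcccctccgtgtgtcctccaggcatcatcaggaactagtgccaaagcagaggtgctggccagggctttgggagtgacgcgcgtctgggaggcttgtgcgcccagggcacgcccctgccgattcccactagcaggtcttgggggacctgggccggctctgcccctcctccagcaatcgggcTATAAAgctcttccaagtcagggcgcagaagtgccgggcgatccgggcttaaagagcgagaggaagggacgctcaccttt
Of 33469 rat promoters of this length, 16.2% held AGGTCA, 10.6% TTGCNNAA, 37.5% CCAAT and 14.2% TATAAA, and 0.0538% held a direct repeat, a pair of AGGTCA with 1 base between, which is also counted under AGGTCA. The *Adipoq* window held CCAAT starting 42 bases before the start and its reverse complement 69 bases before it. The *Thrsp* window held 1 CCAAT on the reverse strand, the *Pck1* window 1 AGGTCA starting 144 bases before the start, and the *Ucp1* window 1 TATAAA starting 30 bases before it. None of the 4 windows held the direct repeat or TTGCNNAA, and no short motif of those searched was found in all of the 3 printed genes that varied together. *Fabp4* and *Car3*, which followed *Adipoq* more closely than *Thrsp* and *Pck1* did, had no promoter available and were not searched.

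*Adipoq* (NM_144744), which encodes the hormone adiponectin, differed widely between rats of 1 group. Its level was 0.649, 9.82, 0.632, 20.6, 4.04 and 5.25 CPM in naïve rats 41, 42, 43, 44, 45 and 49, from 9, 164, 8, 204, 59 and 61 reads. In bPYX+GFP rats 5, 15, 18, 21, 52 and 57 it was 21.2, 11.7, 4.24, 1.51, 9.87 and 0.417 CPM. In bPYX+NT3 rats 2, 11, 17, 23, 39 and 40 it was 1.03, 1.71, 4.36, 2.60, 0.995 and 0.632 CPM. The highest rat stood above the lowest by 32.5 times among naïve rats, by 50.8 times after bPYX+GFP and by 6.90 times after bPYX+NT3, and the 3 groups overlapped. The within-group SD of its log2 CPM was 1.67, rank 3 from the top of 11821 genes with enough reads, for which the median was 0.211.

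*Fabp4* (NM_053365), the fatty acid carrier of adipocytes, which endothelial cells and macrophages can also make, was high and low in largely the same rats. It was 1.30, 12.9, 1.18, 29.0, 4.58 and 7.75 CPM in the 6 naïve rats in the same order. In bPYX+GFP rats it was 57.4, 13.1, 3.51, 2.71, 8.98 and 2.01 CPM, and in bPYX+NT3 rats 1.44, 2.32, 9.02, 3.16, 3.98 and 1.26 CPM. Naïve rat 44 and bPYX+GFP rat 5 were the highest of their groups for both genes, and bPYX+NT3 rat 17 was the highest of its group for both. The within-group SD of log2 CPM was 1.55 (rank 6).

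*Lpl* (NM_012598), the secreted lipase, was far steadier. Naïve rats had 36.0, 45.7, 48.1, 57.4, 44.6 and 67.4 CPM, and the others 48.97, 35.1, 36.9, 31.2, 48.4 and 26.04 CPM in bPYX+GFP rats and 36.1, 20.4, 39.9, 36.9, 35.2 and 29.0 CPM in bPYX+NT3 rats. The highest rat of a group stood 1.87 to 1.95 times above the lowest, and the within-group SD of log2 CPM was 0.34 (rank 2774). Every rat had at least 335 reads of *Lpl*, including the rats with fewer than 10 reads of *Adipoq*.

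**Figure D1:**
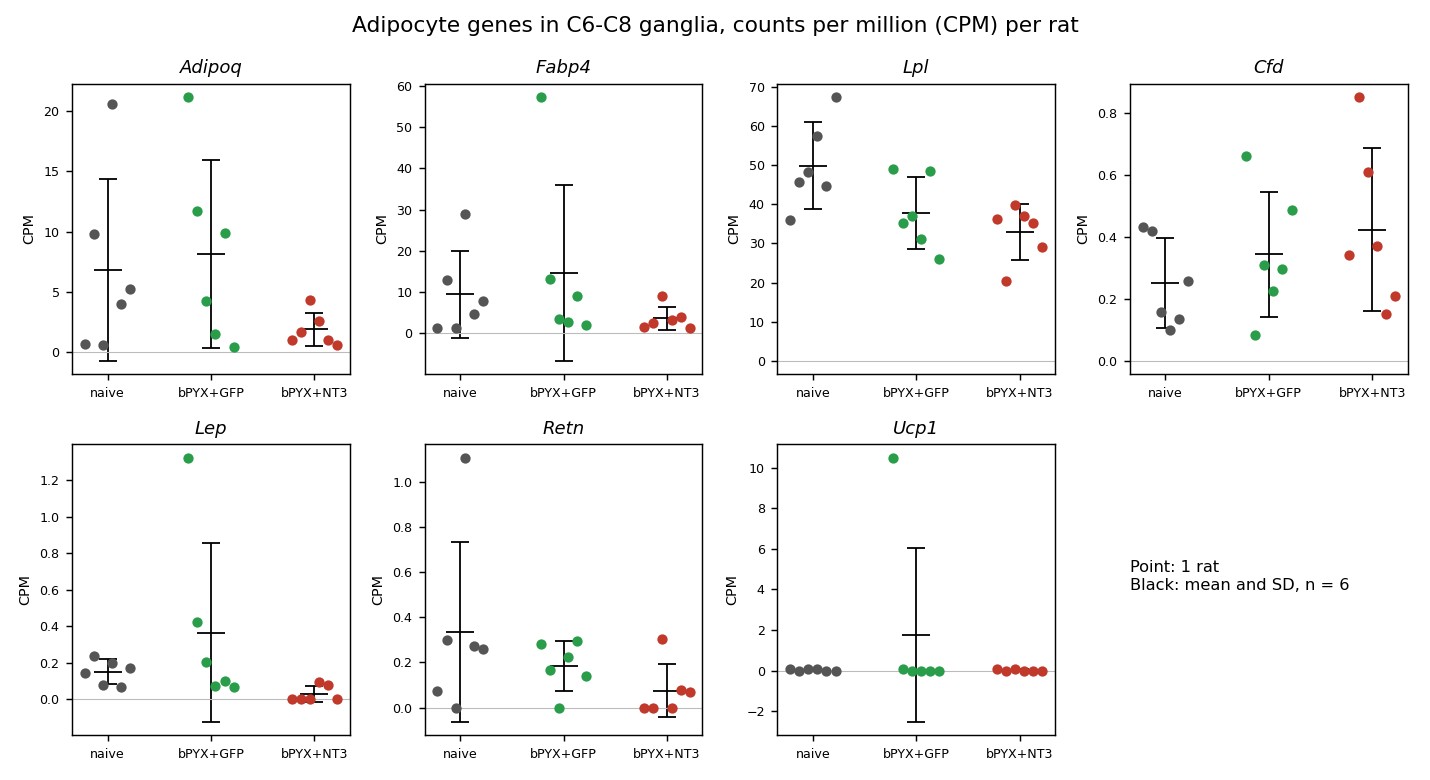
Level in CPM (vertical axes, a separate linear scale for each gene) of the 7 adipocyte genes with more than 1 read in some rat, by group (horizontal axes). Each point is 1 rat, and the black bars are the mean and SD (n = 6), which reach below 0 where the SD exceeds the mean. *Adipoq* spreads from 0.632 to 20.6 CPM in naïve and from 0.417 to 21.2 CPM in bPYX+GFP rats. *Fabp4* reaches 29.0 CPM in naïve rats, and 1 bPYX+GFP rat stands at 57.4 CPM with the next at 13.1 CPM. *Lpl* stays between 20.4 and 67.4 CPM, and 1 bPYX+GFP rat holds nearly all *Ucp1*.

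The remaining hormones were near the limit of the depth. *Lep* (NM_013076), the satiety hormone leptin, had 1 to 4 reads in each naïve rat, 14, 5, 2, 1, 1 and 1 reads in bPYX+GFP rats 5, 15, 18, 21, 52 and 57, and 0, 0, 0, 1, 1 and 0 in bPYX+NT3 rats. *Retn* (NM_144741), resistin, had 1, 5, 0, 11, 4 and 3 reads in the naïve group, 0 to 3 after bPYX+GFP and 0 to 4 after bPYX+NT3, with its highest count in naïve rat 44 and, among bPYX+NT3 rats, in rat 17. *Cfd* (NM_001077642), complement factor D or adipsin, had between 1 and 14 reads and was highest in bPYX+NT3 rat 11, where *Adipoq* was at 1.71 CPM. A count of 0 in these libraries allows a level of up to 0.180 to 0.310 CPM (3 reads, counting error only), so no order of the groups is read from these genes.

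*Ucp1* (NM_012682) was found in 1 rat. It had 111 reads in bPYX+GFP rat 5 (10.5 CPM) and 0 or 1 read in each of the other 17 rats. Of the list of 9 brown adipocyte genes, 6 had an identifier, and 3 of these were at their highest in rat 5. They are named here after their values were seen: *Cidea*, a lipid droplet protein, was at 9.55 CPM in rat 5 and at most 5.65 CPM in any other rat, *Cox8b*, a cytochrome oxidase subunit, had 7 reads in rat 5 and at most 3 elsewhere, and *Pdk4*, a kinase that shifts fuel use from glucose to fat, was at 51.8 CPM in rat 5 and at most 38.4 CPM elsewhere. *Ppargc1a*, the coactivator of mitochondrial biogenesis, was at 36.2 CPM in rat 5, within the 29.5 to 38.6 CPM of the other rats, and *Dio2* and *Otop1* were not highest there either. The list was thus high in rat 5 in part, and naïve rat 44, with nearly as much *Adipoq*, had 1 read of *Ucp1*. Being highest in rat 5 was not particular to the brown list. It held for 10 of 21 identifiers of a list of further adipocyte genes and 4 of 10 identifiers of the genes described here. The share of all genes highest in rat 5 was not counted.

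The question of covariation was then asked within groups, with the group means of log2 CPM removed, so that a difference between groups could not produce it. *Fabp4* followed *Adipoq* with Pearson r = 0.93 and Spearman rho = 0.94 over 18 rats (permutation within groups, 100000 resamples, two-sided, p = 3.0e-05 and p = 1e-05, the second being the smallest these resamples can give, adjusted p = 0.00054 and 0.00018 over the 18 relations computed). Without rats 5 and 44, the 2 rats farthest from the median of *Adipoq*, r was 0.91. Within the groups of 6, r was 0.99 for naïve rats, 0.89 for the bPYX+GFP group and 0.81 for the bPYX+NT3 group. In bPYX+NT3 rats the means of the endothelial and macrophage lists followed *Adipoq* as closely as *Fabp4* did (r = 0.82 and 0.84, 6 rats).

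*Retn* and *Lpl* followed *Adipoq* more loosely. For *Retn* r was 0.63 and rho 0.63 (permutation p = 0.00851 and 0.0129, adjusted p = 0.0456 and 0.0580), and r without the 2 farthest rats was 0.50. For *Lpl* r was 0.62 and rho 0.63 (permutation p = 0.0101 and 0.0119, adjusted p = 0.0456 and 0.0580), and r without the 2 farthest rats was 0.54. Both passed the adjusted threshold by Pearson's r and missed it by Spearman's rho. *Lpl* followed *Adipoq* with r = 0.89 in bPYX+GFP, 0.56 in naïve and 0.30 in bPYX+NT3 rats.

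*Lep* (r = 0.60, rho = 0.56, permutation p = 0.0214 and 0.0327, adjusted p = 0.0769 and 0.118) missed the adjusted threshold, at 0 to 14 reads per rat. *Ucp1* had r = 0.39 and rho = 0.30 (permutation p = 0.223 and 0.200, adjusted p = 0.366 and 0.400), and r = 0.12 without rat 5. *Cfd* had r = 0.0056 and rho = 0.082 (permutation p = 0.983 and 0.758, adjusted p = 0.983 and 0.853), at a depth of 1 to 14 reads that can show little. r without rats 5 and 44 was 0.52 for *Lep*, -0.066 for *Ucp1* and -0.030 for *Cfd*.

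**Figure D2:**
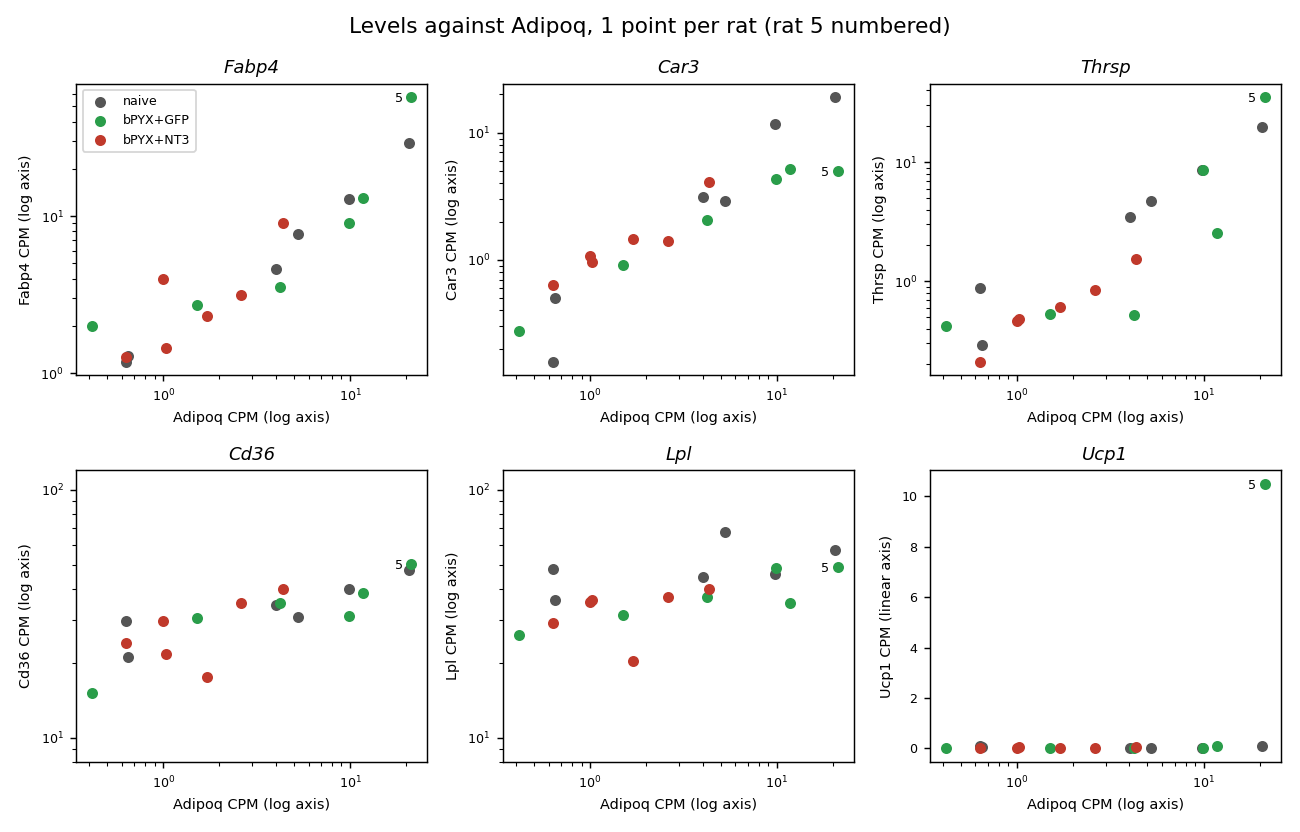
Level of 6 genes in CPM (vertical axes) against *Adipoq* CPM (horizontal axes), 1 point per rat, coloured by group, with rat 5 numbered. All axes are logarithmic except the vertical axis of *Ucp1*, which is linear. *Fabp4*, *Car3* and *Thrsp* are mostly higher in rats with more *Adipoq*, though *Car3* is only at 5.01 CPM in rat 5 and *Thrsp* only at 2.53 CPM in rat 15. *Cd36* and *Lpl* keep a level of at least 15.1 and 20.4 CPM in every rat, including those with least *Adipoq*. *Ucp1* leaves 0 in rat 5.

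A straight line of each gene's CPM on *Adipoq* CPM over the 18 rats gives the level left at zero *Adipoq*, as a description with no test. Group means were not removed here, so differences between groups enter the line too. For *Fabp4* this level was -16.2% of its mean, and between -28.6% and 7.18% when each rat was left out in turn, a range that holds 0. For *Lpl* it was 34.9 CPM, 86.9% of its mean of 40.2 CPM (84.6% to 89.9% with each rat left out). For *Cd36*, a fatty acid transporter that endothelial cells and macrophages also make, it was 78.7%, and for *Scd*, the desaturase that makes monounsaturated fatty acids, 81.7%. *Car3*, carbonic anhydrase 3, and *Pck1* gave 10.8% (-11.3% to 38.7%) and -22.3% (-42.5% to 15.7%), ranges that hold 0, and *Thrsp* gave -39.5% (-56.1% to -25.2%), below 0 throughout. These 3 genes are shown because they followed *Adipoq* most closely. The ranges of *Lpl*, *Cd36* (77.2% to 81.6%) and *Scd* (79.8% to 85.1%) stayed far above 0, while those of *Retn* (19.0%, 0.0109% to 57.03%), *Lep* (-4.82%, -30.0% to 48.7%) and *Ucp1* (-107.3%, -158.7% to 54.5%) were wide. The line for *Cfd* left 100.9% (90.8% to 117.6%). In bulk RNA, fewer cells of a type and less RNA per cell cannot be told apart, and which cells gave the reads was not tested.

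The 15 other genes most like *Adipoq* were found by the Pearson r of the same group-centred values among 11818 genes, whose median r was 0.021. The first were *Car3* (r = 0.96), *Thrsp* (0.90), *Pck1* (0.89), NM_013094 (0.85, an identifier that no table here pairs with a symbol), *Cd36* (0.81) and *Scd* (0.76). These 5 named genes are also all on the list of 25 further adipocyte genes, of which 15 had enough reads. That list was chosen with earlier results of these data known, so the overlap is a description only. After them came *Cep97*, *Ccng2*, NM_001113775 (also unpaired), *Rnf113a2*, *Casp4*, *Wsb1*, *Zfp667*, *Pcdhga1* and *Pank2*, with r between 0.72 and 0.75, none of which is on an adipocyte list. Of the 11818 genes, 25 had r over 0.7 and 47 had r under -0.7. The within-group SDs of *Thrsp*, *Car3*, *Pck1* and NM_013094 ranked 1, 4, 8 and 9 of 11821, so that with *Adipoq* and *Fabp4* 6 of the 9 most variable genes within groups varied together. These ranks are a description over genes that share the same 18 libraries.

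*Thrsp* showed the range most fully. It was 0.288, 8.62, 0.869, 19.9, 3.49 and 4.73 CPM in naïve rats, 35.4, 2.53, 0.517, 0.528, 8.59 and 0.417 CPM in bPYX+GFP rats and 0.480, 0.609, 1.53, 0.837, 0.459 and 0.211 CPM in bPYX+NT3 rats. *Car3* had the same rats high, at 11.6 and 19.2 CPM in naïve rats 42 and 44 against 0.158 to 3.15 CPM in the other naïve rats, but was only at 5.01 CPM in rat 5. The reads of these genes per read of *Adipoq* were therefore unequal in rat 5. *Ucp1* stood at 0.496 reads per *Adipoq* read there against at most 0.125 elsewhere, *Pck1* at 0.754 against a median of 0.366 in the other rats, *Thrsp* at 1.67 against 0.462, and each of these 3 ratios was the highest of the 18 rats. *Car3* per *Adipoq* read was the lowest of the 18 rats in rat 5, 0.237 against a median of 0.778, and *Fabp4* per *Adipoq* read had rank 3 there, 2.71 against 1.41.

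**Figure D3:**
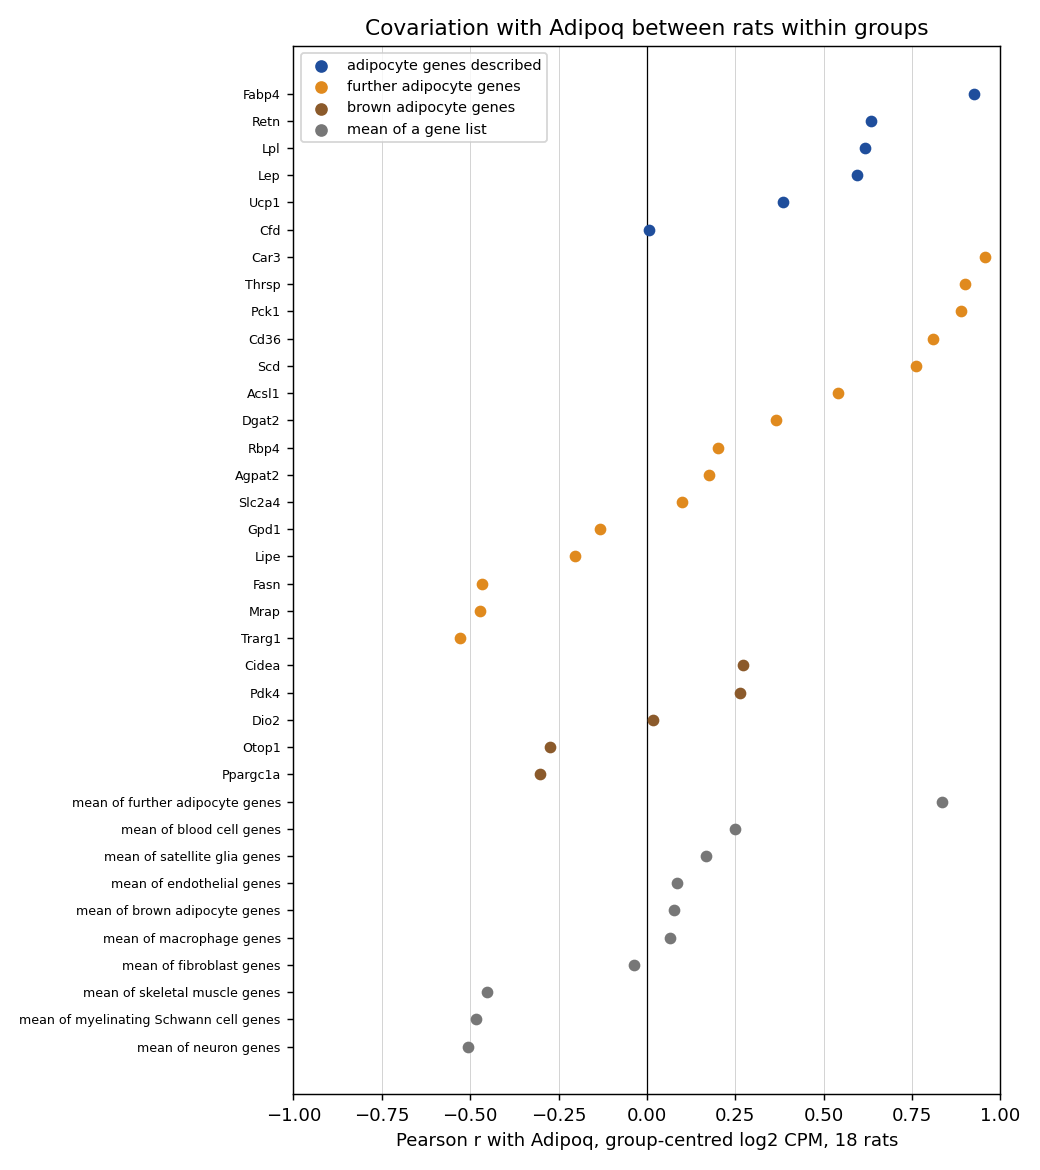
Pearson r with *Adipoq* (horizontal axis, from -1 to 1) of group-centred log2 CPM over 18 rats, for 6 of the adipocyte genes described, the further adipocyte and brown adipocyte genes with enough reads, and the mean of each gene list. *Fabp4*, *Car3*, *Thrsp*, *Pck1* and *Cd36* lie above 0.8, while *Trarg1*, *Fasn* and *Mrap*, all on the further adipocyte list, lie below -0.4. Which cells gave the reads of these genes was not tested.

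The further adipocyte list did not move as a block. Of its 15 genes with enough reads, 6 had r over 0.5 with *Adipoq* and 8 lay between -0.5 and 0.5. The other 1, *Trarg1*, a regulator of glucose transporter traffic, lay at -0.53. By r, *Acsl1*, the lowest of the 6, ranked 458 and *Trarg1* ranked 11131 of 11818 genes. Many genes off the list thus had r past these limits too. The mean of the list had r = 0.84 and rho = 0.91 (permutation p = 0.00040 and 6.0e-05, adjusted p = 0.0036 and 0.00054), and 0.81 without the 2 farthest rats. The list was chosen with earlier results of these data known, so the p-values of its mean are no independent support. *Thrsp*, *Car3* and *Pck1*, whose SDs of log2 CPM were 1.87, 1.65 and 1.45 against at most 0.56 for the other genes averaged, weigh most in that mean, and the log2 sum of the list's CPM, in which *Scd* and *Trarg1* weigh most, had r = 0.48. By highest mean level the list and the brown list gave *Scd* (668.7 CPM over 18 rats), *Trarg1* (475.6), *Acsl1* (179.5), *Fasn* (146.6), *Ppargc1a* (33.8) and *Cd36* (31.8). *Fasn*, the fatty acid synthase, had r = -0.47 and *Acsl1*, which activates fatty acids, r = 0.54, with a level at zero *Adipoq* of 95.7% of its mean. No rat had less than 392.4 CPM of *Trarg1*, 100.3 CPM of *Fasn* or 7.24 CPM of *Mrap*, including rat 57 with 0.417 CPM of *Adipoq*. Which cells gave these reads was not tested, so their r is not read as that of adipocytes.

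Lists for other cells were set against *Adipoq* in the same way. The means of the fibroblast, endothelial, macrophage, satellite glia, blood cell and brown adipocyte lists had r = -0.035, 0.086, 0.065, 0.17, 0.25 and 0.078 (permutation, adjusted p between 0.561 and 0.949) and rho between 0.0072 and 0.31 (adjusted p between 0.477 and 0.982). Within bPYX+NT3 rats alone, a description over 6 rats, r was 0.61, 0.82, 0.84, 0.70, 0.68 and 0.17 in the same order, while within naïve rats it was 0.013, -0.14, 0.11, -0.44, 0.46 and -0.61 and after bPYX+GFP -0.41, -0.17, -0.43, 0.31, -0.27 and 0.61. The part of these cells in the covariation was not tested. The mean of the neuron list had r = -0.51 and rho = -0.48 (permutation p = 0.0360 and 0.0496, adjusted p = 0.108 and 0.149), and r = -0.60 without the 2 farthest rats. The mean of the myelinating Schwann cell list had r = -0.48 and rho = -0.37 (permutation p = 0.0701 and 0.152, adjusted p = 0.180 and 0.342), and that of the skeletal muscle list r = -0.45 and rho = -0.21 (permutation p = 0.106 and 0.437, adjusted p = 0.191 and 0.613), with r = -0.48 and -0.52 without the 2 farthest rats. The muscle value rested on 1 rat: 9 of the 13 muscle identifiers were highest in bPYX+GFP rat 57, which had the lowest *Adipoq*, and leaving out 1 rat at a time gave r between -0.59 and -0.094. The log2 total reads of a library had r = -0.45 and rho = -0.44 (permutation p = 0.0948 and 0.102, adjusted p = 0.190 and 0.262), and r = -0.24 without the 2 farthest rats. The share of reads in no feature, 30.8% to 34.6%, had r = 0.41 and rho = 0.24 (permutation p = 0.0874 and 0.370, adjusted p = 0.190 and 0.606), and r = 0.42 without them. Their part in the covariation was not tested.

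The comparison of bPYX+GFP with naïve rats asked whether the genes differed after the lesion and GFP vector together. *Adipoq* was 8.16 ± 7.81 CPM (SD, n = 6) in bPYX+GFP and 6.83 ± 7.54 CPM in naïve rats, a log2 fold change of 0.27 (SE 0.83, edgeR unadjusted p = 0.752), and *Fabp4* was 14.6 ± 21.4 against 9.45 ± 10.6 CPM (0.65, SE 0.87, edgeR unadjusted p = 0.468). Both differences were smaller than the spread between rats and turned negative without rat 5, to -0.30 and -0.63. *Lpl* was lower in bPYX+GFP rats, 37.8 ± 9.24 against 49.9 ± 11.0 CPM, with a log2 fold change of -0.40 (SE 0.17, edgeR unadjusted p = 0.0328, adjusted p = 1.0, exact two-sided permutation p = 0.0736). It was the only 1 of the 3 tested genes with an unadjusted p under 0.05, where 3.25% of all genes had one and none passed after adjustment in edgeR's quasi-likelihood test (377 of 11601 at unadjusted p under 0.05, and 12 adjusted calls in DESeq2 and 13 in edgeR's likelihood ratio test). The *Lpl* call was lost when any of the rats 15, 18, 21, 44, 49 or 57 was left out, and with the groups of the sample titles the difference was -0.022.

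None of the exact tests of the genes too low for edgeR's filter passed 0.05 for bPYX+GFP against naïve rats. On the log2 CPM scale *Cfd* differed by 0.27 (exact permutation p = 0.413), *Lep* by 0.41 (exact permutation p = 0.435), *Retn* by -0.28 (exact permutation p = 0.600) and *Ucp1* by 0.81 (exact permutation p = 0.803). The exact p of *Adipoq* was 0.788 and that of *Fabp4* 0.682, by permutation, and the smallest two-sided p that 6 rats against 6 allow is 0.00216. At these depths only large differences could have been seen.

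The comparisons with bPYX+NT3 rats are those that chose *Adipoq*. *Adipoq* was 1.89 ± 1.40 CPM (SD, n = 6) in bPYX+NT3 rats, and its log2 fold change was -2.11 (SE 0.73) against bPYX+GFP and -1.85 (SE 0.73) against naïve rats. *Fabp4* was 3.53 ± 2.88 CPM, at -2.05 (SE 0.79) and -1.41 (SE 0.71), and *Lpl* 32.9 ± 7.10 CPM, at -0.20 (SE 0.18) and -0.60 (SE 0.17). Both comparisons share the bPYX+NT3 rats, and the comparisons with naïve rats share the naïve rats. By unadjusted p under 0.05 the called genes were *Adipoq* and *Fabp4* against bPYX+GFP rats, where 1.73% of all genes were called, and *Adipoq* and *Lpl* against naïve rats, where 6.01% were, and nothing is read from these counts. Adjusted over all genes tested, the edgeR p was 0.851 and 0.607 for *Adipoq*, and no gene passed in either comparison (201 and 703 at unadjusted p under 0.05, and 0 adjusted calls in DESeq2 and in the likelihood ratio test).

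Taking naïve rats first, then bPYX+GFP, then bPYX+NT3, *Adipoq* was 0.632, 0.417 and 0.632 CPM in the lowest rat, 4.64, 7.06 and 1.37 CPM at the median and 20.6, 21.2 and 4.36 CPM in the highest rat. Without rat 5, *Fabp4* was -0.78 on the log2 scale against bPYX+GFP rats (edgeR unadjusted p = 0.197), and without naïve rat 44, *Adipoq* was -1.14 against naïve rats (edgeR unadjusted p = 0.108). With each rat left out, *Adipoq* ran from -2.55 to -1.55 against bPYX+GFP and from -2.28 to -1.14 against naïve rats. These values are a description, since *Adipoq* was chosen on these comparisons. With the groups of the sample titles the log2 fold changes of *Adipoq* were 1.27 against bPYX+GFP and -0.13 against naïve rats, so its direction against bPYX+GFP rats rests on the rat numbers. The paper's own log2 fold changes of *Adipoq*, -2.11 against bPYX+GFP and -1.85 against naïve rats, equal those of the rat-number groups. In the groups of the titles *Fabp4* was at -0.71 against naïve rats.

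**Figure D4:**
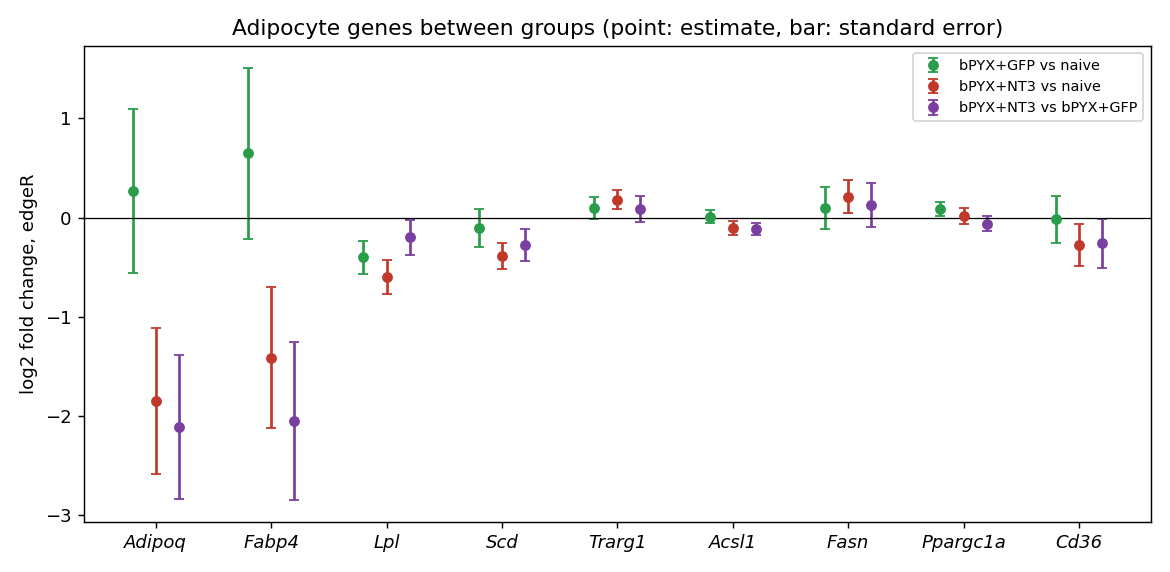
edgeR log2 fold changes (vertical axis) in the 3 comparisons, 6 rats per group. Shown are the 3 tested adipocyte genes and the 6 most abundant genes of the further and brown adipocyte lists (horizontal axis). Bars are standard errors derived from the F statistic of the test. *Adipoq* and *Fabp4* have the widest bars, with SEs of 0.71 to 0.87, and *Acsl1* and *Ppargc1a* the narrowest, with changes between -0.11 and 0.085.

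The further adipocyte list was compared between groups as a whole. Of 15 genes tested after bPYX+GFP against naïve, 0 were higher and 1, *Mrap* (-0.37, SE 0.17), was lower at unadjusted p under 0.05 (3.25% of all genes were called in either direction), and the median log2 fold change was 0.093, where that of all genes was 0.012. Between bPYX+NT3 and naïve rats, 0 were higher and 3 lower, *Thrsp* (-3.18, SE 0.80), *Car3* (-1.94, SE 0.82) and *Scd* (-0.39, SE 0.13), where 6.01% of all genes were called, with a median of -0.16, where that of all genes was 0.00051. Between bPYX+NT3 and bPYX+GFP rats, 14 genes were tested and 1, *Pck1* (-2.42, SE 0.89), was lower, where 1.73% of all genes were called, with a median of -0.18 where that of all genes was 0.0049. *Thrsp* passed the filter on low counts against naïve rats through 5 naïve rats and 1 bPYX+NT3 rat, so its call there gives no support. It failed the filter in bPYX+NT3 against bPYX+GFP rats, where it is the gene missing from the 14. *Pck1* passed the filter there at the minimum number of rats, through bPYX+GFP rats 5, 15, 18 and 52 and bPYX+NT3 rats 11 and 17. Its call gives no support either, and rat 5 alone had 169 reads, with at most 42 in any other bPYX+GFP rat. None passed adjustment over all genes. Of the 5 brown adipocyte genes tested, 1, *Otop1* (-0.85, SE 0.25), was lower in bPYX+GFP than naïve rats, 1, *Pdk4* (0.32, SE 0.15), was higher in bPYX+NT3 than naïve rats, and 0 were called for bPYX+NT3 against bPYX+GFP rats, again by unadjusted p only and beside the same shares of all genes. On the further list, *Trarg1* (0.18, SE 0.096), *Fasn* (0.21, SE 0.17) and *Lipe*, the hormone-sensitive lipase (0.29, SE 0.19), were not lower in bPYX+NT3 than in naïve rats. Nor were *Slc2a4* (0.19, SE 0.27) and *Agpat2* (0.13, SE 0.32), while the other tested genes of that list had negative log2 fold changes there.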

How the data were processed

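Read pairs were mapped by the authors with TopHat2 (build Rnor_6.0), cleared of duplicates with Picard and assigned to RefSeq identifiers by HTSeq. The deposited values are these raw counts, and between 53.9% and 59.1% of the records of a library were not assigned to a feature. Identifiers were matched to symbols by a RefSeq table of GRCr8 (94.1% of 15075), which with its promoters was used for names and sequences only. Counts were tested with edgeR 4.0.16 (R 4.3.3, quasi-likelihood, TMM, 2 groups per fit, more than 10 reads in at least 6 of 12 rats, Benjamini-Hochberg over all genes tested), with DESeq2 1.42.0 among the alternatives. Log2 CPM used a prior count of 2. Correlations were tested by permuting rats within groups. The genes and lists were chosen with earlier results of these data known. All 10 adipocyte genes are named, with up to 6 genes of the fat lists by mean CPM and the 15 genes most like *Adipoq*. Other genes of the fat lists are named where they were called between groups, or after their values were seen. The scripts were tested on simulated data. No pair of libraries agreed within sampling noise (lowest chi-square 2.86 per degree of freedom). P-values measure the spread between rats.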

Additional observations from a re-analysis of the deposited data

Results flagged for a closer look

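In groups of 6 rats, 6 values lay apart from the rest of their group, by a gap to the nearest rat that took up more of the group's range than Dixon's test allows at the 95% level. For normal values chance gives about 1 such case in 20 groups. Here 21 groups were examined on linear CPM that is skewed, with genes that share the same rats and some at few reads, so that rate does not apply and the chance rate was not tested. bPYX+GFP rat 5 stood apart for *Fabp4* (57.4 CPM, the next rat at 13.1), *Lep* (1.32 CPM, next 0.422, from 14 reads) and *Ucp1* (10.5 CPM, next 0.0843, from 111 reads). bPYX+NT3 rat 17 stood apart for *Fabp4* (9.02 CPM, next 3.98) and *Retn* (0.306 CPM, next 0.0766, from 4 reads), and naïve rat 44 for *Retn* (1.11 CPM, next 0.299, from 11 reads). *Adipoq* itself had no such rat in any group.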

How the results depend on the processing

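The number of adipocyte genes with an unadjusted p under 0.05 was 1 for bPYX+GFP against naïve rats, 2 for bPYX+NT3 against naïve rats and 2 for bPYX+NT3 against bPYX+GFP rats. It stayed within 1.5 times of these under the likelihood ratio test, DESeq2, its size factors, library size alone, filterByExpr and 1 fit over the 3 groups. Without a filter on low counts it was 2, 4 and 4, and with each rat left out 0 to 1, 1 to 3 and 1 to 2. With the groups of the sample titles it was 0, 0 and 1, and with their replicate block 0, 0 and 0. The sample numbers in the groups of the rat numbers carry no stated pairing: deviations of same-numbered rats correlated between -0.40 and 0.53, over 0.1 in 10 of 18 pairs. A replicate block on them, chosen after seeing the data, gave 0, 2 and 1 genes, and 316, 2962 and 130 genes of all tested in place of 377, 703 and 201, with *Fabp4* at -1.31 against bPYX+GFP rats, no longer past the threshold. With rats left out the genes of all tested ran from 272 to 595, 365 to 1387 and 95 to 2291, the last without rat 57. With the groups of the titles, without and with the block, *Adipoq* reversed to -1.39 and -1.49 (bPYX+GFP against naïve) and to 1.27 and 1.40 (bPYX+NT3 against bPYX+GFP), *Fabp4* to -1.74 and -1.16 and to 1.04 and 0.90, and *Lpl* to 0.43 and 0.42 (bPYX+NT3 against naïve), to 0.45 and 0.42 (bPYX+NT3 against bPYX+GFP) and, with the block, to 0.00013 (bPYX+GFP against naïve). Rats left out gave -0.30 to 0.97 for *Adipoq* and -0.63 to 1.38 for *Fabp4* in bPYX+GFP against naïve rats. The cause was not tested. The r of *Fabp4* with *Adipoq* kept its direction and call under every alternative run, at 0.91 to 0.94 with each rat left out. That of *Cfd*, near 0, turned to -0.029 with a prior count of 0.5, -0.17 with title groups and -0.083 with no group means removed, and with rats left out ran from -0.16 to 0.14 (below 0 at -0.064, -0.054, -0.16, -0.030, -0.0040, -0.057, -0.033 and -0.046). With library size alone the level at zero *Adipoq* was -17.4% for *Fabp4* and 88.0% for *Lpl*, and with each rat left out -28.6% to 7.18% and 84.6% to 89.9%. The planned summed reference was run without *Plin1*, and with *Cidec* at 1 read it was nearly *Adipoq* alone, so it tested nothing about the reference. Depth limits *Cfd*, *Lep* and *Retn*.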
